A study of Mus musculus with 7 samples.

Results

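The genes described here are 10 components of NF-kB signalling: the subunit genes Nfkb1, Rela, Rel, Nfkb2 and Relb, the inhibitor gene Nfkbia, the coactivator gene Bcl3, the kinase gene Map3k14 and the receptor genes Tnfrsf12a and Il1r1. They were taken by symbol and by known role in disuse wasting from a table of 21487 rows, in which all 10 were found. RNA had been sequenced from gastrocnemius, a fast calf muscle, of mice with a deletion of Park7, the gene of DJ-1, in skeletal muscle (MPARK7KO, here KO, 4 libraries) and of flox mice that the labels call WT (3 libraries). Every mouse in both groups had been subjected to immobilization to cause muscle atrophy, so no library shows muscle without disuse. The sources used here give no age, sex, promoter that drove the deletion or number of animals, and p-values therefore measure the spread between samples, which may be technical.

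NF-kB is a family of transcription factors that act as dimers and are held in the cytoplasm until a receptor is engaged. In the canonical arm, receptors for interleukin 1 or TNF activate a kinase complex that removes the inhibitor encoded by Nfkbia and frees p50 (from Nfkb1), p65 (Rela) and c-Rel (Rel). In the non-canonical arm, receptors such as Fn14 (Tnfrsf12a) and the lymphotoxin-beta receptor stabilise the kinase NIK (Map3k14), which triggers the processing of p100 (Nfkb2) to p52, the partner of RelB (Relb). Bcl-3 (Bcl3) is a nuclear relative of the inhibitors that binds p50 or p52 homodimers and lets them activate genes. In unloaded rodent muscle, p50 and Bcl-3 are known to be needed for wasting, and Fn14 rises in denervated or disused mouse muscle.

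Several of these genes are themselves known targets of NF-kB, and their promoter sequences are shown for that reason. RefSeq windows on GRCm38.p6, from 250 bases before to 50 bases after an annotated start, were found for 8 of the 10 genes. The windows were searched on both strands for the kappaB consensus, a motif of 10 bases. It was found in 7 of 11 windows, from 5 genes (Nfkb2, Rel, Nfkbia, Bcl3 and, in the second of its windows, Il1r1), and in 8.46% of all 32851 promoter windows. Nfkb2 has 3 of these windows, of which a pair overlap and share a match, so 7 windows are not 7 separate sites. The windows of Rela, Tnfrsf12a and Map3k14 held none. Nfkb1 and Relb had no entry.

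In the sequences below, capitals mark a match and positions count from 0 at the annotated start. The stretches of Rel (chr11:23770971-23771090, minus strand, match from -92, a pair of overlapping matches) and of Nfkbia (chr12:55492648-55492767, minus strand, match from -29) lie upstream of the gene's GENCODE exons, as do those of Tnfrsf12a (chr17:23677469-23677588, minus strand) and Il1r1 (chr1:40224960-40225079, plus strand), which hold no match. For Bcl3 (chr7:19822734-19822763, minus strand, match from position 2) and Nfkb2 (chr19:46304688-46304717, plus strand, match from -39, with a second that overlaps it) the match lies within exon bases, and 30 bases around it are shown. The same Nfkb2 window holds a further match from -11, which is not shown.
Rel: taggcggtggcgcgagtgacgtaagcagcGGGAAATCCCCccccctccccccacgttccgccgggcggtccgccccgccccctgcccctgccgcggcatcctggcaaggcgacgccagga
Nfkbia: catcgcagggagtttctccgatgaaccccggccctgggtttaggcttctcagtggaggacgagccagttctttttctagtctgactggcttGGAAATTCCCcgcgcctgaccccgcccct
Bcl3: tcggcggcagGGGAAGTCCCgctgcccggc
Nfkb2: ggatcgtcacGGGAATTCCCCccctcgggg
Tnfrsf12a: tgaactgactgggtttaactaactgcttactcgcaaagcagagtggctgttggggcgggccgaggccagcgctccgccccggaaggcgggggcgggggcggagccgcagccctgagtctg
Il1r1: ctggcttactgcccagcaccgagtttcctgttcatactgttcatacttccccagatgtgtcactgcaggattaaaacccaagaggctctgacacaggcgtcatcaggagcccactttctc

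The libraries held 24458343 to 26389010 counts. Park7, the deleted gene, averaged 37.3 ± 2.94 CPM (counts scaled to a common library size, with TMM factors) in KO (SD, n = 4) and 245 ± 18.8 CPM in WT (SD, n = 3), with every KO library below every WT library. Markers of muscle fibres were abundant in every library, with a summed level over 10 genes of 130512 to 202108 CPM in KO and 104815 to 131285 CPM in WT (exact permutation p = 0.0857, adjusted 0.12 over 7 marker lists, 1 gene higher and 2 lower by the edgeR test). The largest part of this sum was Myh4, the myosin of fast fibres, which rose (edgeR adjusted p = 0.0381), while the oxygen store gene Mb fell (log2 fold change -2.17, edgeR adjusted p = 0.0101). Myh7, the myosin of slow fibres, read 238, 9.29, 5.78 and 288 CPM in KO 1 to 4, against 646, 762 and 762 CPM in WT 1 to 3, so KO 2 and KO 3 stood apart. Neutrophil and lymphocyte markers were close to 0: 6 neutrophil markers summed to 0.472 to 1.64 CPM in KO and 0.460 to 1.24 CPM in WT, and 9 lymphocyte markers to 1.23 to 1.64 CPM in KO and 1.11 to 3.06 CPM in WT. Each of Elane, Retnlg, Cxcr2, Cd3e, Cd4, Cd8a and Ms4a1 had no count in at least 1 library, and no marker was at 0 in all. For these lists the exact permutation p was 0.971 and 0.229 (adjusted 0.971 and 0.267). Only 1 gene of each list, Csf3r and Ptprc, passed the filter on low counts and was tested, and neither was called.

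Of the 10 genes, 2 rose in KO, Relb and Il1r1, and none fell. These calls are from the edgeR quasi-likelihood test with Benjamini-Hochberg adjustment over 13409 genes, at an adjusted p under 0.05. Over all tested genes 14.9% were called (6.67% higher and 8.23% lower in KO). As a count in either direction, 2 among 10 is close to the 14.9%. Both of the 2 were higher, for which the share over all genes is 6.67%. The KO and WT libraries did not overlap for 4 genes, Relb, Il1r1, Bcl3 and Rel, each higher in KO. Over all tested genes 28.8% did not overlap, 14% higher and 14.8% lower in KO. The median log2 fold change of the 10 was 0.23, against 0.0058 over all tested genes, and 8 of the 10 were positive. Of the 10, 4 had an unadjusted p under 0.05, as had 4262 of the 13409. These counts and the median include Bcl3, which passed the filter on low counts only through KO. The 10 genes and the lists read below were chosen with earlier results of these data known. Their counts and medians are therefore a description and not a test. Without KO 2 and KO 3, the libraries low in Myh7, none of the 10 was called: Relb stood at 0.54 (edgeR adjusted p = 0.0805) and Il1r1 at 0.61 (0.0919), with 373 genes of all higher and 460 lower. This fit was added after the data were seen.

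**Figure D1:**
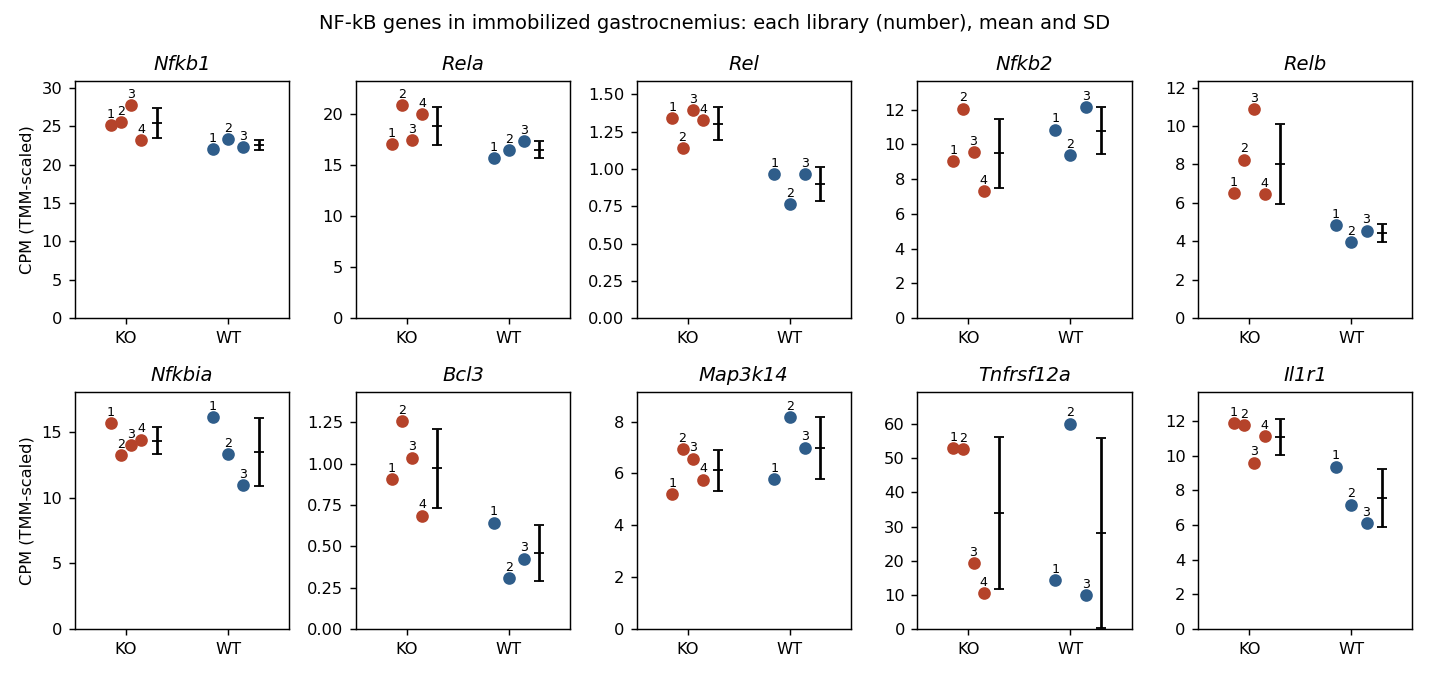
Level of each of the 10 genes in CPM (vertical axes from 0) in the 4 KO libraries (red) and 3 WT libraries (blue), with replicate numbers, and mean and SD as black bars. Relb, Il1r1, Bcl3 and Rel have every KO library above every WT library, whereas Tnfrsf12a is high in KO 1, KO 2 and WT 2.

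Relb, the subunit that works with p52 in the non-canonical arm, was 1.80-fold higher in KO. It read 6.53, 8.26, 10.9 and 6.45 CPM in KO 1 to 4, from 180, 217, 273 and 160 counts. In WT 1 to 3 it read 4.86, 3.95 and 4.56 CPM, from 121, 103 and 118 counts. The lowest KO library lay above the highest WT library, and the KO libraries were more widely spread than the WT libraries. The log2 fold change was 0.85 (SE 0.202, edgeR adjusted p = 0.0270). With 1 library left out it stayed between 0.67 and 0.94, but the call ended without WT 1 (edgeR adjusted p = 0.0642), WT 2 (0.0827) or WT 3 (0.0759). Relb lies on the minus strand of chromosome 7, at 19606217 to 19629438 of GRCm38, with no exon of another gene over its own in GENCODE M21.

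Its partner gene Nfkb2 did not pass and had a negative value. Nfkb2, which encodes p100 and p52, averaged 9.49 ± 1.97 CPM in KO (SD, n = 4) and 10.8 ± 1.37 CPM in WT (SD, n = 3), with a log2 fold change of -0.19 (SE 0.170, edgeR adjusted p = 0.488). The libraries ranged from 7.29 to 12.1 CPM in KO and from 9.39 to 12.1 CPM in WT, so the groups overlapped. Leaving out single libraries gave log2 fold changes from -0.32 (without KO 2) to -0.08 (without KO 4). Its values in KO 2 and WT 1 were not whole numbers, which RSEM gives where reads are shared with other genes, and its exons overlap those of Psd on the other strand. Map3k14, the kinase that starts p100 processing, averaged 6.11 ± 0.785 CPM in KO (SD, n = 4) and 6.98 ± 1.19 CPM in WT (SD, n = 3). The ranges, 5.19 to 6.93 CPM in KO and 5.79 to 8.16 CPM in WT, overlapped. Its log2 fold change was -0.19 (SE 0.156, edgeR adjusted p = 0.429), from -0.32 to -0.06 with 1 library left out, and exons of 1700028N14Rik overlap it on the same strand. Whether Relb differed from Nfkb2 or Map3k14 in its response was not tested.

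The subunit genes of the canonical arm did not pass, and differences in Nfkb1 and Rela were small. Nfkb1 averaged 25.4 ± 1.90 CPM in KO (SD, n = 4) and 22.6 ± 0.658 CPM in WT (SD, n = 3), and its log2 fold change was 0.17 (SE 0.0863, edgeR adjusted p = 0.203). Rela averaged 18.8 ± 1.86 CPM in KO (SD, n = 4) and 16.5 ± 0.814 CPM in WT (SD, n = 3), and its log2 fold change was 0.19 (SE 0.102, edgeR adjusted p = 0.234). Nfkb1 ranged from 23.2 to 27.8 CPM in KO and from 22.1 to 23.3 CPM in WT, and Rela from 17.1 to 20.9 CPM in KO and from 15.7 to 17.3 CPM in WT. For each, 3 of the 4 KO libraries lay above the highest WT library. Under every alternative run the log2 fold change stayed positive, from 0.10 to 0.22 for Nfkb1 and from 0.14 to 0.23 for Rela.

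Rel, the gene of c-Rel, a subunit best known from lymphocytes, was sparse. It read 1.34, 1.14, 1.39 and 1.33 CPM in KO 1 to 4, from 37, 30, 35 and 33 counts. In WT 1 to 3 it read 0.965, 0.767 and 0.966 CPM, from 24, 20 and 25 counts. The groups did not overlap, and KO was 1.45-fold of WT (log2 fold change 0.53, SE 0.204), but the gene did not pass (edgeR adjusted p = 0.113). Over all alternatives its adjusted p ran from 0.101 to 0.267. Rel lies on the minus strand of chromosome 11, at 23736847 to 23770970 of GRCm38.

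Nfkbia, the inhibitor that canonical signalling removes and then induces again, did not pass. It averaged 14.3 ± 1.04 CPM in KO (SD, n = 4) and 13.5 ± 2.62 CPM in WT (SD, n = 3), and the WT libraries, at 10.9 to 16.2 CPM, spanned the KO libraries, at 13.2 to 15.7 CPM. The log2 fold change of 0.09 (SE 0.136, edgeR adjusted p = 0.685) became -0.04 without WT 3, the lowest library.

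Bcl3 had the largest fold change of the 10 genes from low counts, and did not pass. It read 0.907, 1.26, 1.04 and 0.685 CPM in KO 1 to 4, from 25, 33, 26 and 17 counts. In WT 1 to 3 it read 0.643, 0.307 and 0.425 CPM, from 16, 8 and 11 counts. KO 4 lay just above WT 1, and the other KO libraries lay further up. The fitted ratio was 2.12-fold, a log2 fold change of 1.08 (SE 0.333), with an edgeR adjusted p of 0.0591. The value stayed between 0.86 and 1.39 with 1 library left out, and its adjusted p between 0.0576 and 0.165. Bcl3 passed the filter on low counts, 0.384 CPM in at least 3 libraries, only through KO, where 4 libraries reached it, while 2 did in WT. Bcl3 lies on the minus strand of chromosome 7, at 19808462 to 19822770 of GRCm38. Exons of Gm16175 on the other strand overlap those of Bcl3, and whether counting used strand is not given in the sources used here.

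**Figure D2:**
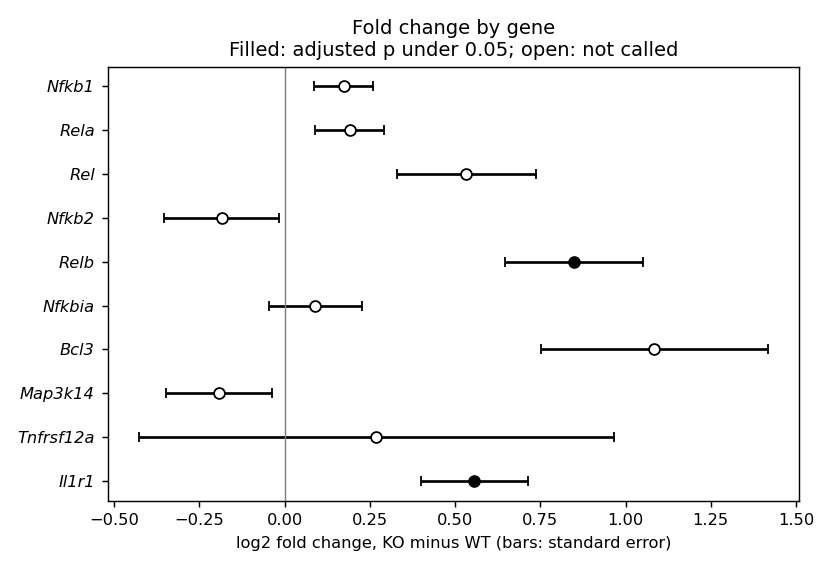
Log2 fold change, KO minus WT, of the 10 genes (points) with standard errors (bars). Relb at 0.85 and Il1r1 at 0.56 are filled as called at an adjusted p under 0.05, Bcl3 at 1.08 is not called, and Tnfrsf12a has the widest error, 0.696.

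Tnfrsf12a, the gene of the TWEAK receptor Fn14, varied more within each group than between them. It read 53.0, 52.8, 19.2 and 10.4 CPM in KO 1 to 4, from 1462, 1387, 483 and 259 counts. In WT 1 to 3 it read 14.3, 60.2 and 9.85 CPM, from 356, 1571 and 255 counts. KO 1, KO 2 and WT 2 were high and the other libraries low, so the groups overlapped over nearly their whole range. The highest library was 5.08 times the lowest within KO and 6.11 times the lowest within WT, whereas for the other 9 genes these ratios were at most 1.83 and 2.10. Every library held at least 255 counts of the gene. The log2 fold change was 0.27 (SE 0.696, edgeR adjusted p = 0.824). It was 1.49 without WT 2 (edgeR adjusted p = 0.174), and -0.04, -0.03, -0.05 and -0.14 without KO 1, KO 2, WT 1 or WT 3. Tnfrsf12a is on chromosome 17, minus strand, at 23675445 to 23677468 of GRCm38.

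Il1r1, the receptor through which interleukin 1 signals, was 1.47-fold higher in KO. It read 11.9, 11.8, 9.60 and 11.1 CPM in KO 1 to 4, from 327, 309, 241 and 276 counts. In WT 1 to 3 it read 9.37, 7.17 and 6.10 CPM, from 233, 187 and 158 counts. KO 3 lay just above WT 1, and the other libraries were well apart. The log2 fold change was 0.56 (SE 0.156, edgeR adjusted p = 0.0447). Of the fits with 1 library left out, that without WT 1 held the call, and it ended without KO 1 (edgeR adjusted p = 0.0842), KO 2 (0.0692), KO 3 (0.0605), KO 4 (0.0896), WT 2 (0.120) or WT 3 (0.137), and also with upper quartile scaling (0.0663). The log2 fold change stayed between 0.43 and 0.73. Il1r1 lies on the plus strand of chromosome 1, at 40225080 to 40317257 of GRCm38.

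Il1r1 is known from endothelial and stromal cells as well as fibres, and in whole muscle fewer cells of a type and less RNA per cell cannot be told apart. Endothelial markers summed to 199 to 219 CPM in KO and 243 to 286 CPM in WT, with 1 of 8 lower by the edgeR test. Their exact permutation p was 0.0286, the lowest that 35 splits allow (adjusted 0.12). Over 7 lists, a single list at this lowest p cannot reach an adjusted p under 0.05, so the adjusted value decides nothing here. Fibroblast and progenitor markers summed to 243 to 387 CPM in KO and 347 to 749 CPM in WT, with 4 of 9 lower (exact permutation p = 0.0571, adjusted 0.12). Macrophage markers, for a cell type known to express Rel, summed to 39.5 to 64.0 CPM in KO and 57.8 to 93.4 CPM in WT, with 3 of 11 lower and none higher (exact permutation p = 0.0857, adjusted 0.12). Satellite cell markers summed to 54.9 to 59.9 CPM in KO and 49.8 to 53.9 CPM in WT, with none of 7 called (exact permutation p = 0.0571, adjusted 0.12). The sums of the first 3 lists thus lay lower in KO on average, and none of their markers was at 0. The sum of satellite cell markers lay higher in KO through Cdh15 (means of 30.7 CPM in KO and 25.2 CPM in WT) and Sdc4 (21.4 and 17.5 CPM). The other 5 of the 7 had negative log2 fold changes, and 3 of these lay lower in KO without overlap. The median log2 fold change of the list was -0.41, so the sum does not speak for most of its markers. Within the fibroblast list, Col1a1, Col1a2 and Col3a1 were highest in WT 3 (98.1, 154 and 204 CPM). Pdgfra, Dcn and Dpt of that list were not called. The part of these cell types in the results was not tested.

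Levels were compared between genes as CPM per kilobase of merged GENCODE exons. Tnfrsf12a had the highest mean in both groups, 17.5 ± 11.5 CPM per kilobase in KO (SD, n = 4) and 14.6 ± 14.4 in WT (SD, n = 3), but in each group its range spanned that of Nfkbia. Nfkbia averaged 8.91 ± 0.643 CPM per kilobase in KO and 8.37 ± 1.63 in WT. Rela followed, with 6.13 ± 0.607 in KO and 5.37 ± 0.265 in WT, and neither its KO nor its WT libraries reached the lowest of Nfkbia in the same group.

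Below these came a group of genes that lay close together. In KO, Nfkb1 (2.11 ± 0.157 CPM per kilobase), Nfkb2 (2.07 ± 0.430), Relb (2.07 ± 0.534) and Il1r1 (1.74 ± 0.164) each overlapped the next in this order, although Il1r1 lay below Nfkb1, and Map3k14 (0.933 ± 0.120) lay below all of them. In WT, Nfkb2 (2.35 ± 0.299) lay above Nfkb1 (1.87 ± 0.0546) without overlap, while Il1r1 (1.19 ± 0.262), Relb (1.15 ± 0.120) and Map3k14 (1.07 ± 0.181) overlapped. Relb thus overlapped Nfkb1, Nfkb2 and Il1r1 in KO, and Il1r1 and Map3k14 in WT. Bcl3 (0.392 ± 0.0965 in KO, 0.185 ± 0.0690 in WT) and Rel (0.174 ± 0.0148 in KO, 0.120 ± 0.0154 in WT) were the lowest, apart from each other in KO and overlapping in WT.

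**Figure D3:**
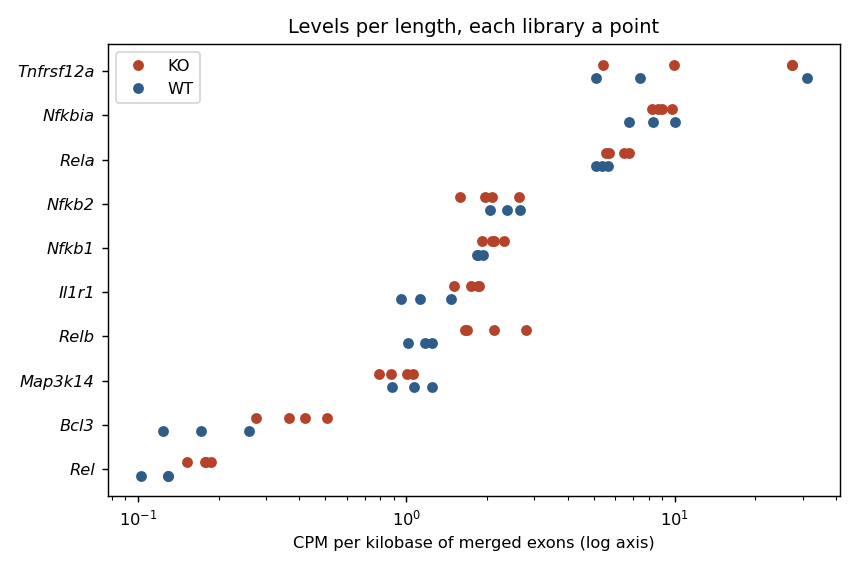
Level of each gene per kilobase of merged exons (CPM per kilobase, log axis), each library a point, KO in red above WT in blue, ordered by the WT mean. Tnfrsf12a spans 5.40 to 27.5 in KO and 5.10 to 31.2 in WT, and Rel and Bcl3 lie lowest.

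Other genes that carry NF-kB signals were read against the 6.67% of all genes higher and 8.23% lower in KO. Of 35 kinases, adaptors, ubiquitin enzymes and inhibitors, 33 were tested, 1 fell and none rose (7 at an unadjusted p under 0.05), and with DESeq2 2 rose and 3 fell. The median log2 fold change was -0.06. Irak2, an IRAK-family adaptor of interleukin 1 and Toll-like receptors, read 4.93, 6.09, 4.62 and 4.55 CPM in KO 1 to 4, against 6.67, 8.89 and 8.58 CPM in WT 1 to 3. Every KO library lay below every WT library, and the log2 fold change was -0.67 (SE 0.153, edgeR adjusted p = 0.0232). The call ended without KO 3 (0.0637), KO 4 (0.0574), WT 2 (0.0757) or WT 3 (0.0809), and with the replicate number as a block (edgeR adjusted p = 0.0539).

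Genes around the stability of NIK were singled out after their values were seen. Traf2, an adaptor of the complex that keeps NIK unstable, had a log2 fold change of 0.41 (SE 0.172, edgeR adjusted p = 0.137). The other adaptor, Traf3, had -0.06 (SE 0.146, edgeR adjusted p = 0.796). The ligase Birc2 had -0.11 (SE 0.0764, edgeR adjusted p = 0.363). Chuk, the kinase that NIK activates, had 0.07 (SE 0.111, edgeR adjusted p = 0.712). None of the 4 passed.

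Other ligands and receptors were read against the same shares over all genes (6.67% higher, 8.23% lower). Of 27 listed, 25 were in the table, 14 were tested, 11 lay below the filter, 1 rose and none fell (5 at an unadjusted p under 0.05; 2 rose with DESeq2). The median log2 fold change was -0.26. Ltbr, the lymphotoxin-beta receptor and like Fn14 a receptor of the non-canonical arm, read 21.3, 23.8, 24.3 and 23.4 CPM in KO 1 to 4, against 18.1, 17.8 and 17.7 CPM in WT 1 to 3. All KO libraries lay above all WT libraries, with a log2 fold change of 0.38 (SE 0.0822, edgeR adjusted p = 0.0198). The call ended without KO 3 (0.0582), WT 1 (0.0652), WT 2 (0.0577) or WT 3 (0.0709), and with the replicate number as a block (edgeR adjusted p = 0.0710).

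The ligands of the receptors described, also named after their values were seen, differed in abundance. Tnfsf12, which encodes TWEAK, the ligand of Fn14, read 3.34, 3.81, 3.31 and 3.63 CPM in KO 1 to 4, against 4.42, 4.45 and 4.33 CPM in WT 1 to 3. Its KO libraries lay below its WT libraries, but it did not pass (log2 fold change -0.32, SE 0.125, edgeR adjusted p = 0.116). In every library its value was not a whole number, which RSEM gives where reads are shared with other genes. Tnf had 4, 2, 1 and 1 counts in KO and 1, 0 and 1 in WT, and Il1b had 3, 3, 2 and 2 counts in KO and 1, 0 and 2 in WT. Both lay below the filter and were not tested. Il1rap, the co-receptor of Il1r1, had a log2 fold change of -0.12 (SE 0.210, edgeR adjusted p = 0.727).

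Calls among known direct NF-kB targets were likewise read against the shares over all genes (6.67% higher, 8.23% lower). Of 32 such genes, 30 were in the table and 16 were tested, of which 2 fell and none rose (6 at an unadjusted p under 0.05; 3 fell and none rose with DESeq2), with a median log2 fold change of -0.19. The 14 below the filter included the chemokine gene Ccl2 and Il6, with at most 6 and 3 counts in a library. Sod2, the mitochondrial superoxide dismutase, averaged 218 ± 9.69 CPM in KO (SD, n = 4) and 299.5 ± 11.7 CPM in WT (SD, n = 3), and its log2 fold change was -0.46 (SE 0.0709, edgeR adjusted p = 0.00680). It was called under every alternative run. Gadd45b, a stress-induced gene, read 9.14, 5.82, 11.6 and 17.5 CPM in KO 1 to 4, against 24.1, 23.3 and 26.7 CPM in WT 1 to 3. Its log2 fold change was -1.17 (SE 0.289, edgeR adjusted p = 0.0295), and the call ended without KO 1 (0.0658), KO 3 (0.0673) or any WT library (0.0661 to 0.0895) and with a robust prior (edgeR adjusted p = 0.0519). Both genes are also controlled by other pathways.

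Genes of muscle wasting, chosen with their earlier results known, are given beside these. Of 12 tested, 5 rose (6.67% of all genes did), among them Fbxo32, Trim63, Cdkn1a and Eif4ebp1, and none fell, and the median log2 fold change was 1.06. Trim63, the ligase MuRF1, whose induction in unloaded mouse muscle is known to need p50 and Bcl-3, read 572, 738, 395 and 482 CPM in KO 1 to 4, against 235, 242 and 159 CPM in WT 1 to 3 (log2 fold change 1.37, SE 0.223, edgeR adjusted p = 0.00795). Fbxo32, the ligase atrogin-1, read 1182, 991, 1018 and 1084 CPM in KO 1 to 4, against 563, 477 and 339 CPM in WT 1 to 3 (log2 fold change 1.22, SE 0.163, edgeR adjusted p = 0.00452). The groups were apart for both, as they were for Cdkn1a (log2 fold change 1.01, SE 0.185, edgeR adjusted p = 0.0111), a brake of the cell cycle, and Eif4ebp1 (2.15-fold, edgeR adjusted p = 0.0128), a repressor of translation. Eif4ebp1 lost its call without WT 3 (0.0505), and without that library 3 genes of this list rose. The order of the KO libraries differed between genes: KO 3 had the most Relb and the least Trim63.

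**Figure D4:**
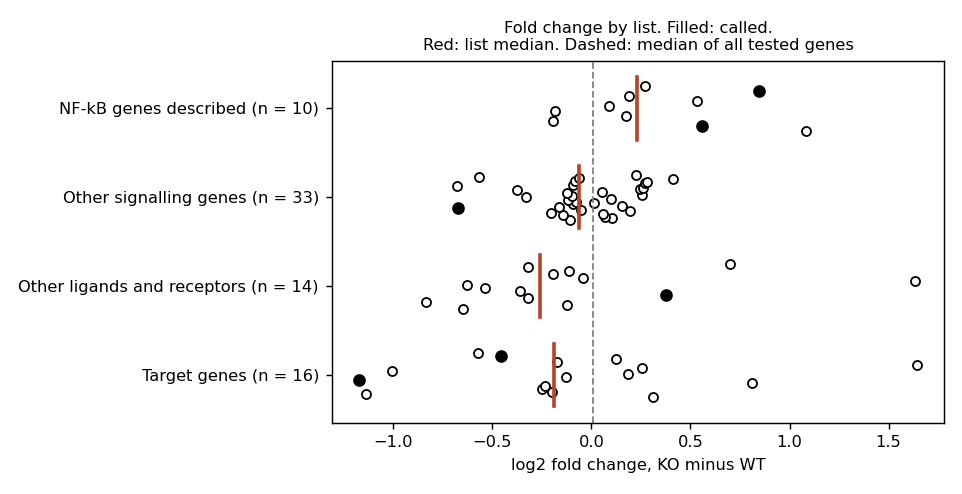
Log2 fold change, KO minus WT, of every tested gene of 4 lists, filled where called, with the list median (red) and the median of all tested genes (dashed, 0.0058). The medians are 0.23 for the 10 genes described, -0.06 for other signalling genes, -0.26 for other ligands and receptors and -0.19 for target genes.

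The genes whose pattern over the 7 libraries was most like that of Tnfrsf12a were Xirp1, Otud1 and Tiam2. Likeness was the root mean square difference of log2 CPM, each gene centred on its own mean, among 10222 tested genes. It was 0.48 for Xirp1, an actin-binding protein of striated muscle, 0.59 for the deubiquitinase Otud1 and 0.61 for Tiam2, an activator of Rac, where Tnfrsf12a itself varied by 1.07. Xirp1 read 307, 329, 210 and 123 CPM in KO 1 to 4, against 177, 632 and 151 CPM in WT 1 to 3. Its highest library was WT 2 and its lowest was KO 4. These genes were picked for sharing this pattern, so it is a description.

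The genes most like Bcl3 were Dopey2, Exoc7 and Slc16a9, with root mean square differences of 0.16, 0.16 and 0.17 where Bcl3 varied by 0.59. Exoc7, a subunit of the exocyst, read 102, 126, 93.4 and 83.5 CPM in KO 1 to 4, against 55.8, 38.8 and 47.9 CPM in WT 1 to 3. KO 2 was its highest library and WT 2 its lowest. Dopey2 averaged 53.9 ± 9.15 CPM in KO (SD, n = 4) and 27.3 ± 5.68 CPM in WT (SD, n = 3), and Slc16a9, of the monocarboxylate transporter family, 11.1 ± 2.94 CPM in KO and 6.38 ± 2.45 CPM in WT. Their higher level in KO follows from the choice by likeness to Bcl3 and is not a test.

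**Figure D5:**
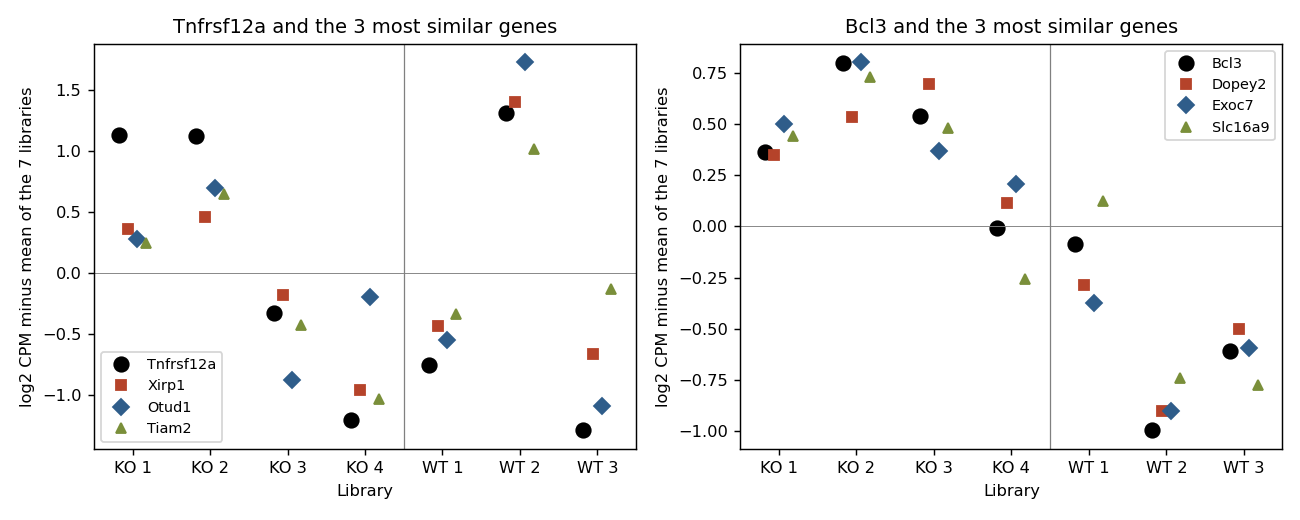
Log2 CPM minus each gene's mean over the 7 libraries, by library, for Tnfrsf12a and the 3 most similar genes and for Bcl3 and the 3 most similar genes. KO libraries stand left of the line and WT libraries right; WT 2 is the highest library of all 4 genes on one side (1.31 for Tnfrsf12a) and KO 2 of Bcl3 on the other (0.80).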

How the data were processed

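RNA from immobilized gastrocnemius of 4 KO and 3 WT samples was sequenced. Per the submitters' processing notes, reads were aligned to mm10 with STAR 2.7.10a and quantified with RSEM 1.2.28. The table the authors deposited holds expected counts per gene symbol, of which 7.48% to 7.74% per library are not whole. They were rounded here. Genes that passed filterByExpr went into edgeR 4.0.16 under R 4.3.3 (TMM, the quasi-likelihood method of version 4, no covariate), with Benjamini-Hochberg adjustment over all genes. The code was tested on simulated counts, where 26.9% of genes changed 1.5-fold and 80.3% of those changed 2-fold were recovered. Of the calls there, 6.29% were unchanged genes. A gene that did not pass is therefore not shown to be unchanged. DESeq2 1.42.0 was an alternative. The SE was taken from the F statistic and the log2 fold change. For marker sums the exact permutation test was 2-sided, over 35 splits. Named genes were the 10 described, Park7, up to 4 called genes of each list with the smallest p (2 where none was called) and the 3 with the nearest pattern to Tnfrsf12a or Bcl3, average log2 CPM above 1. Members and lists were chosen with earlier results of these data known. Positions and exon lengths are from GENCODE M21.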

Additional observations from a re-analysis of the deposited data

How the results depend on the processing

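Of 400 values of named genes under alternatives, 356 kept their direction and their side of the threshold, 32 lost a call, 3 gained one and 9 changed sign. Those 9 belonged to uncalled genes. With 1 library left out, Nfkbia ranged from -0.038 (without WT 3) to 0.23 (without WT 1) and Tnfrsf12a from -0.14 (without WT 3) to 1.49 (without WT 2), and it was also negative without KO 1, KO 2 or WT 1. Xirp1 ranged from -0.74 to 0.57, Otud1 from -0.91 to 0.89 and Tiam2 from -0.63 to 0.24, each positive without WT 2 alone, and Xirp1 stood at 0.12 with the replicate block. The cause was not tested.

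With 1 library left out, genes called numbered 258 to 966 higher and 528 to 1091 lower, against 895 and 1103. Of the 10 NF-kB genes 0 to 1 were called, of signalling genes 0 to 1 rose and 0 to 2 fell, of ligands and receptors 0 to 2 rose and 0 to 1 fell, of targets 0 to 1 rose and 1 to 2 fell, and of wasting genes 3 to 6 rose. Upper quartile scaling left 1 of the 10 NF-kB genes called and 2 signalling genes lower, and 33.2% of all calls higher against 44.8% with TMM. DESeq2 called 2 signalling genes higher and 3 lower, and 2 ligands and receptors higher. A robust prior left 1 target lower. Without both KO 2 and KO 3, which leaves 2 KO libraries and was also chosen after seeing the data, 373 genes were higher and 460 lower, 0 of the 10 NF-kB genes and 0 ligands and receptors were called, and 1 target was lower. Marker sums moved by less than their spread.

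Same-numbered libraries deviated together only weakly (correlations across genes of 0.0945, 0.134 and 0.0854), although each of WT 1 to 3 was closest to its own number, a hint from the data, so pairing is not established. With the replicate number as a block, in which KO 4 adds nothing to the difference, 577 genes were higher and 696 lower, Relb and Il1r1 were called, 1 signalling gene rose and 0 fell, and Tnfrsf12a stood at 0.87 (edgeR adjusted p = 0.182). A trended dispersion, chosen after seeing the data, changed none of the calls among the named genes. Bcl3 and Rel rest on 8 to 37 counts a library.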

Other observations

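The genes named here were picked after their values were seen, and none of them was called. Irf1, an interferon-induced NF-kB target, had 143, 179, 105 and 137 counts in KO 1 to 4 and 482, 187 and 163 counts in WT 1 to 3, and the chemokine gene Cxcl10, below the filter, had 3, 5, 2 and 1 counts in KO and 28, 6 and 1 in WT, so that WT 1 was the highest for both. The metallothionein gene Mt2 had 327, 526, 85 and 113 counts in KO and 80, 109 and 49 in WT, and Mt1 had 809, 686, 196 and 236 counts in KO and 145, 273 and 154 in WT. KO 1 and KO 2, high for Tnfrsf12a, were also the highest for both metallothioneins, while WT 2, high for Tnfrsf12a too, was the highest WT library for both. Tlr5, the receptor of bacterial flagellin, had 123, 205, 68 and 36 counts in KO and 27, 48 and 27 in WT (edgeR adjusted p = 0.0713, log2 fold change 1.63, SE 0.534).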
